A study of Drosophila melanogaster with 36 samples.

Results

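Nascent RNA was compared between ovaries with a germline knockdown of rhino and ovaries with a control germline knockdown, over 1 kb bins of the fruit fly genome (dm3 assembly). A bin was taken where its mappability index was at least 0.5 and its nascent RNA value was at least 1 in either library. This held for 64804 of 139714 bins (46.4%). Nascent RNA was measured by global run-on sequencing (GRO-seq), in which polymerases already engaged on DNA extend their transcripts in isolated nuclei, so that a read reports transcription rather than stable RNA.

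piRNAs are small RNAs that guide Piwi-family proteins to transposons in the gonad. They are cut from long precursors made at piRNA clusters, many of which lie in heterochromatin marked by trimethylated lysine 9 of histone H3 (H3K9me3). Rhino is a germline protein of the HP1 family that binds this mark at dual-strand clusters, which are read from both strands, and brings the Deadlock and Cutoff proteins to them.

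All groups were ovaries of female Drosophila melanogaster, 4 to 6 days old and kept at 25 °C. Both nascent RNA groups carried a germline knockdown, of rhino or of a control target that the sources used here do not name, and the driver is not given either. The somatic follicle cells of the ovary were not targeted. Each group had 1 GRO-seq library, so no difference between the libraries could be tested against the spread between ovaries, and none is called significant. The other libraries used were Pol II ChIP (1 per group), total RNA depleted of ribosomal RNA (2 control, 1 rhino), small RNA of 18 to 29 nt (1 per group), Rhino ChIP (1 in rhino knockdown), small RNA bound to Piwi in a piwi germline knockdown (1) and the authors' averages of 2 libraries for control Rhino ChIP, input and H3K9me3 ChIP in both groups. Whole tissue was sequenced, so fewer germ cells and less RNA per germ cell cannot be told apart.

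The GRO-seq values were scaled to 7070000 reads in the control and 6659999 in rhino knockdown, and 1 read in a fully mappable bin was worth 0.141 and 0.150 units. The median bin held 39 reads in the control and 36 in rhino knockdown. Strands were not separated in the table. The labelled tissue could not be checked against marker genes, because the bins carry no gene names. As a check of the knockdown, the median Rhino ChIP value of the 725 bins bound by Rhino in the control was 38.5 in the control average and 5.91 in rhino knockdown. Those bins were chosen for their high control value.

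A bin was called gained or lost where log2(value + 1) differed by at least 1 between the libraries, a 2-fold change on that scale. By this rule 4269 bins (6.59%) were gained and 3944 (6.09%) were lost, nearly equal numbers at this scaling and limit. A rescaling of rhino knockdown by 1.08 gave 5441 gained and 3357 lost, and a 4-fold limit gave 419 and 114. The median log2 difference over all bins was -0.04, with quartiles of -0.44 and 0.39. The ratio of summed scaled reads was 0.975 (95% counting interval 0.974 to 0.976). Intervals throughout are exact Clopper-Pearson intervals. They cover counting error only, and reads amplified without molecular identifiers are not independent molecules. The counting interval of the single bin left out a ratio of 1 in 4227 of the gained bins and 3925 of the lost bins. The same reads set the calls, so these counts follow largely from the call limit and are no separate support.

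Many called bins were silent in one library. The control had 0 reads in 1359 gained bins, and rhino knockdown had 0 reads in 1042 lost bins. The value was at least 1 in both libraries for 53149 bins, in the control alone for 4852 and in rhino knockdown alone for 6803. At the lower limit, 2291 bins had a higher value between 1 and 1.1, with medians of 0.793 in the control and 1.00 in rhino knockdown, and 1385 bins just missed it with a higher value between 0.9 and 1. On the mappability limit, 312 members lay between 0.5 and 0.55, and 293 bins with enough signal lay between 0.45 and 0.5.

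The large chromosome arms, counted here with their pericentromeric ends, looked alike in both libraries. Without those ends 5.97% of 60534 bins were gained and 5.52% were lost. The share gained was 6.32% on 2L, 6.42% on 2R, 7.05% on 3L, 5.21% on 3R and 5.40% on X. The share lost was 5.49%, 5.51%, 6.01%, 5.02% and 6.91% on the same arms. These shares lie close to those over all bins. Median log2 differences of the arms ranged from -0.06 on X to -0.02 on 2L.

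Summed reads on an arm could follow 1 bin. On 2R the ratio was 1.05 with all bins and 1.00 without the bin at 15888001 to 15889000, whose value was 8856 in the control and 18505 in rhino knockdown. On 3L the ratio was 0.913, and it was 0.983 without the 3 bins at 3095001 to 3098000. These bins were chosen after their values were seen.

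The heterochromatic scaffolds, contigs of the assembly that could not be joined to the arms, did not behave like the arms or like each other. On 3RHet, 189 of 422 bins (44.8%) were gained and 38 were lost (9.0%). The gained share was 21.7% with no minimum on the value, 27.7% with a 4-fold limit and 25.6% with a pseudocount of 5. The median value there was 1.1 in the control and 5.1 in rhino knockdown, and the ratio of summed reads was 2.33 (2.27 to 2.38). On U, the collection of unplaced contigs, 125 of 313 bins (39.9%) were gained and 46 (14.7%) were lost, with a ratio of 1.80 (1.75 to 1.86).

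Scaffold 2RHet had 115 of 512 bins gained (22.5%) and 62 lost (12.1%), with a ratio of 1.03 (1.02 to 1.05). Gained bins were 12 of 47 on 2LHet and 12 of 68 on XHet, and lost bins were 2 and 3. YHet had 3 bins, 1 gained and 1 lost, on 6 reads in the control and 19 in rhino knockdown.

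3LHet and chromosome 4 went the other way. On 3LHet, 34 of 419 bins (8.11%) were gained and 83 (19.8%) were lost, with a median log2 difference of -0.36. On chromosome 4, a small chromosome rich in H3K9me3 but not flagged heterochromatic in the table, 30 of 876 bins (3.42%) were gained and 120 (13.7%) were lost. Its median was -0.25, and its ratio was 0.898 (0.889 to 0.907). The lost share there followed the limits: it was 5.92% with a value of at least 5 in either library, 0.685% with a 4-fold limit and also with a pseudocount of 5, and 21.9% with a pseudocount of 0.1. Losses on chromosome 4 numbered 60 of the 276 bins outside exons and 60 of the 600 exon bins.

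**Figure D1:**
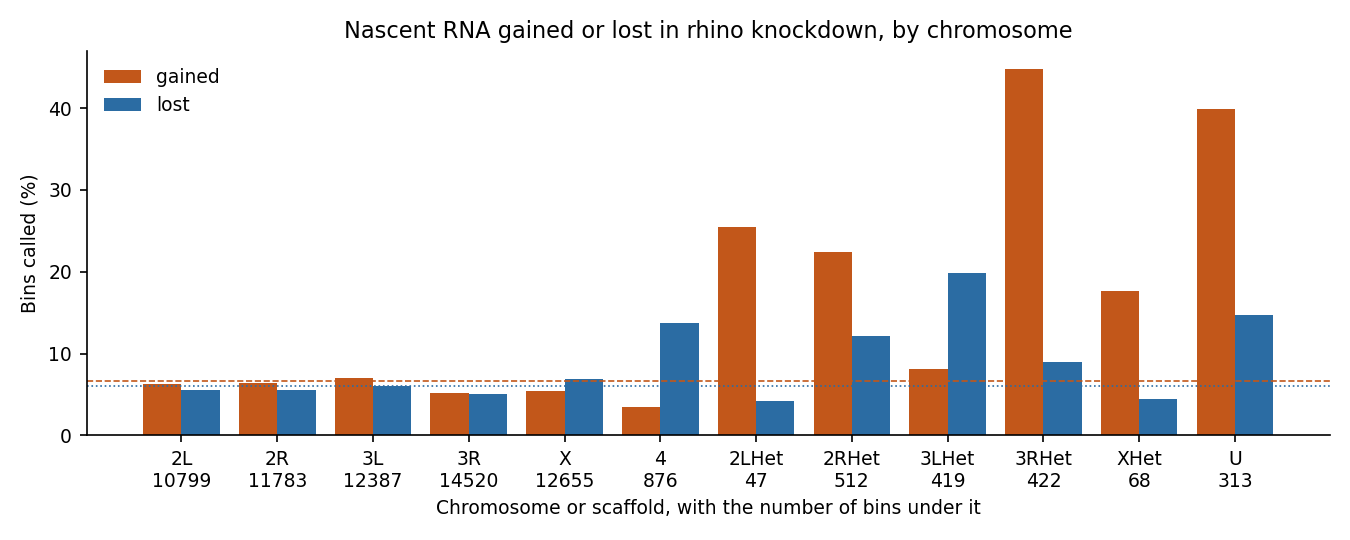
Share of bins (%) with gained (orange) and lost (blue) nascent RNA in rhino knockdown on each chromosome or scaffold, with the number of bins under each name; the dashed and dotted lines mark the shares over all bins, 6.59% and 6.09%. Gains stand highest on 3RHet and U, while losses exceed gains on 3LHet and chromosome 4; YHet with 3 bins is not drawn.

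The heterochromatic flag of the table joins the scaffolds with the pericentromeric ends of the arms. Of 3394 flagged bins, 626 (18.4%) were gained and 481 (14.2%) were lost, against 5.93% and 5.64% of the 61410 other bins. Flagged bins made up 5.24% of all bins, 14.7% of the gained and 12.2% of the lost. The pericentromeric ends leaned towards loss, with 138 of 1610 bins gained (8.57%) and 246 lost (15.3%). The scaffolds leaned towards gain, with 488 of 1784 gained (27.4%) and 235 lost (13.2%). Without 3RHet the flagged bins were evenly divided, with 437 gained and 443 lost of 2972.

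Gained bins were mostly bins without exons. Exons overlapped 58.0% of all bins, 37% of the gained bins and 6.39% of the gained bins in flagged heterochromatin. In flagged heterochromatin, 586 of 2703 bins outside exons were gained (21.7%) and 402 were lost (14.9%), against 40 and 79 of the 691 exon bins. Outside it, the gained share was 8.58% in 24532 bins without exons and 4.17% in 36878 exon bins. Low signal moved with the calls: bins whose higher value was under 2 were gained in 9.12% and lost in 9.21%, and bins with a higher value from 20 to 100 in 2.89% and 2.11%.

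Mappability also moved with the calls. Among heterochromatic bins outside exons, 29.5% of the 756 with a mappability index from 0.5 to 0.7 were gained, 25.1% of the 909 from 0.7 to 0.9, and 13.0% of the 1038 from 0.9 up. The lost share was 18.3%, 14.7% and 12.5% in the same bins. On 3RHet the gained share was still 34.1% (45 of 132 bins) at an index of at least 0.9. The part of mappability in the result was not tested.

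Lost bins were more frequent at higher control Rhino signal. The signal is given as the log2 ratio of the control Rhino ChIP average to the input average, each with 1 added. Where this was under 0, 5.22% of 44324 bins were lost. The lost share was 6.71% of 16714 bins from 0 to 1, 10.3% of 3041 from 1 to 2, 20.9% of 516 from 2 to 3, 38.4% of 151 from 3 to 4, and 55.2% of 58 bins at 4 or more. Each step up in Rhino signal thus held a larger share of lost bins. Summed reads did not follow this share. Their ratio was 0.966, 0.981, 1.05, 1.20, 1.51 and 0.780 over the same steps in order.

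The gained share did not keep climbing. It was 5.60%, 7.13%, 14.2% and 25.0% over the first 4 steps, and then 17.2% both from 3 to 4 and at 4 or more. The median log2 difference was 0.01 from 2 to 3, -0.78 from 3 to 4 and -1.22 at 4 or more. Cluster 42AB supplied 29 of the 58 bins of the highest step. Without 42AB that step had 15 of 29 bins lost (51.7%) and 8 gained (27.6%).

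Bins at least 4-fold over input in the control are called Rhino-bound below. Of 725 such bins, 165 were gained (22.8%) and 198 were lost (27.3%), and which way they went depended on where they lay. Their ratio of summed reads was 1.22 (1.21 to 1.24). On the scaffolds 129 of 306 were gained and 67 were lost. On chromosome 4, 3 of 107 were gained and 37 were lost, and in the euchromatic arms 21 of 243 were gained and 74 were lost. On 3RHet, 75 of 122 bound bins were gained, with 548 reads in the control and 6529 in rhino knockdown, a ratio of 12.6 (11.6 to 13.8). On 3LHet, 2 of 71 were gained and 31 were lost, with a ratio of 0.507 (0.446 to 0.575). On 2RHet, 27 of 47 were gained and 3 were lost. Gained and lost Rhino-bound bins were not alike in signal. The median control Rhino value was 19.6 in the gained and 53.1 in the lost ones, and the median input was 2.55 and 6.67. Of the 823 bins that carry the authors' Rhino peak flag, 89 were gained (10.8%) and 199 were lost (24.2%).

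The losses lay in bins of low signal. Among Rhino-bound bins with a value of at least 5 in either library, 8.02% were lost and 35.1% were gained, and among those with at least 50 reads in either library 5.71% were lost and 34.9% were gained. The median control value of the lost Rhino-bound bins was 2.50, and that of the gained ones in rhino knockdown was 6.83. At a mappability index of at least 0.9 the order was the other way, with 28.0% lost and 8.51% gained of 329 bins. Which direction is the more frequent among Rhino-bound bins therefore rests on these limits.

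H3K9me3 in the control marked called bins of both kinds. At 4-fold to 8-fold over input, 16.4% of 3105 bins were gained and 15.5% were lost, and at 8-fold or more 9.62% and 11.5% of 1091 bins. Under 1-fold, 5.95% of 47514 bins were gained and 5.34% were lost. Bins with both Rhino and H3K9me3 at least 4-fold over input numbered 538, of which 151 were gained (28.1%) and 139 were lost (25.8%). The 187 Rhino-bound bins with less H3K9me3 had 14 gained (7.49%) and 59 lost (31.6%). Bins with 4-fold H3K9me3 and Rhino under 2-fold numbered 2060, with 161 gained (7.82%) and 262 lost (12.7%).

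Bins that gave many small RNAs in the control lost nascent RNA most often. With a control small RNA value of at least 1000, 34 of 82 bins (41.5%) were lost and 11 (13.4%) were gained, and from 100 to 1000, 20.3% and 16.3% of 459 bins. From 10 to 100, 8.54% of 4838 bins were lost and 9.96% were gained. From 1 to 10, 4.63% of 25252 bins were lost and 4.68% were gained. Under 1, 6.54% of 34173 bins were lost and 7.37% were gained. Without the 34 bins of 42AB in the highest step, 15 of 48 were lost (31.2%) and 9 were gained (18.8%).

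Small RNA bound to Piwi in the piwi germline knockdown, which the labels call somatic, marks bins used by follicle cells. Where its value was from 10 to 100, 22 of 1065 bins (2.07%) were gained and 38 (3.57%) were lost, both below the shares over all bins. The median control GRO-seq value of these bins was 15.9, against 5.62 over all bins. Called shares were lower at high signal in general, and the part of signal level was not tested. At 100 or more, 3 of 81 were gained (3.70%) and 7 were lost (8.64%). That lost share was above the 6.09% over all bins, and the ratio of summed reads was 0.733 (0.713 to 0.753).

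**Figure D2:**
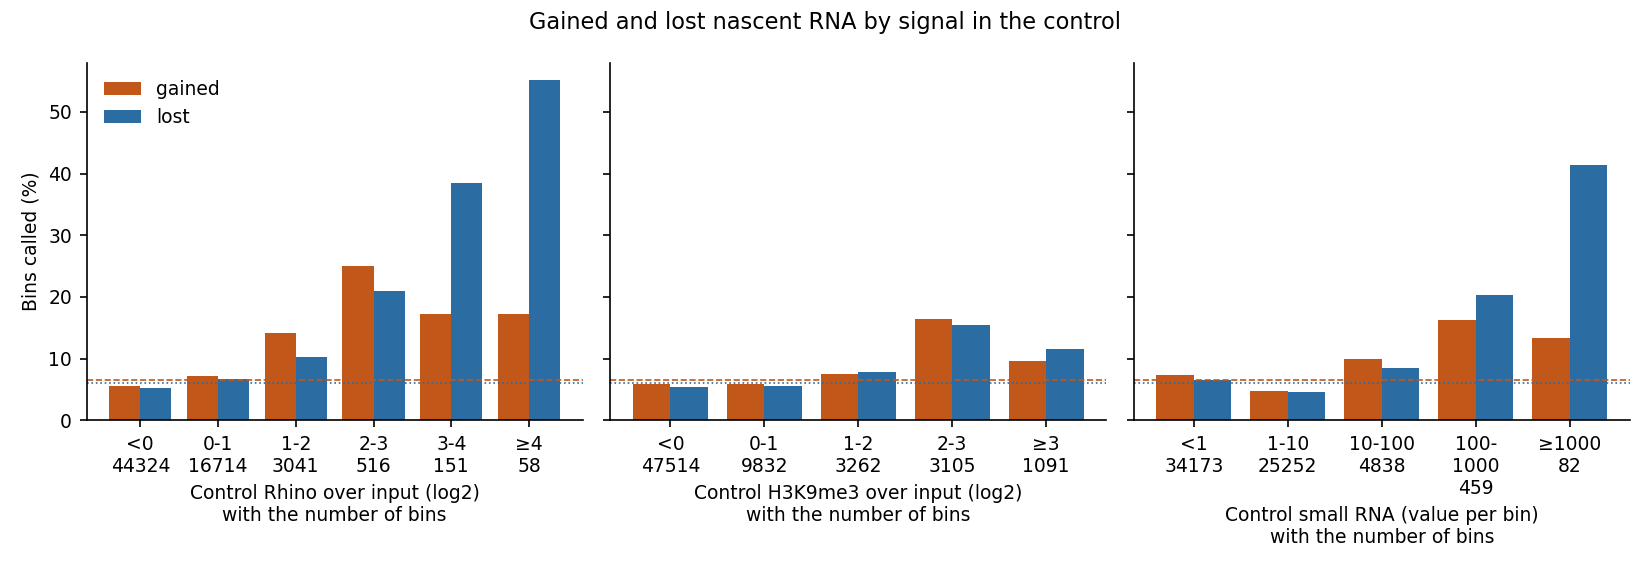
Share of bins (%) with gained (orange) and lost (blue) nascent RNA by control Rhino over input (log2), control H3K9me3 over input (log2) and control small RNA value, with the number of bins under each step; horizontal lines mark the shares over all bins. The lost share climbs with Rhino to 55.2% of 58 bins. By small RNA it is 6.54% under 1, lowest at 4.63% from 1 to 10 and highest at 41.5% of 82 bins. The gained share is highest at 25.0% in the Rhino step from 2 to 3.

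Cluster 42AB (2R 2144001 to 2387000) is the strongest dual-strand cluster of the germline. It had 37 of its 243 bins in the analysis, since 205 had a mappability index under 0.5. None overlapped an exon. Of the 37 bins, 20 were lost and 2 were gained, and the median value was 6.31 in the control and 1.38 in rhino knockdown, a median log2 difference of -1.22. The ratio of summed reads was nevertheless 0.921 (0.856 to 0.992), because the last bin, 2381001 to 2382000, held 40.6% of the reads. Its value was 72.7 in the control and 127 in rhino knockdown. Without it the ratio was 0.591 (0.534 to 0.653).

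The loss was not uniform along 42AB. In the first 10 bins (2144001 to 2182000) 8 were higher in rhino knockdown, 2 of them called gained and none lost, and 317 control reads stood against 504, a ratio of 1.69 (1.46 to 1.95). In the next 26 bins (2210001 to 2381000) 25 were lower and 20 were lost, and 790 control reads stood against 112, a ratio of 0.151 (0.122 to 0.184). This division was made after the values were seen. The median Rhino signal over input was similar in the 2 stretches, at 4.67 and 4.83 (log2). Small RNA was lower in both, with means of 2841 and 10.2 in the first stretch and 3651 and 114 in the second, control and rhino knockdown in that order. Mean Pol II signal was 7.68 and 5.55 in the first stretch and 7.90 and 2.60 in the second. RNA-seq was below both control libraries in all 10 bins of the first stretch and in 23 of the 26.

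**Figure D3:**
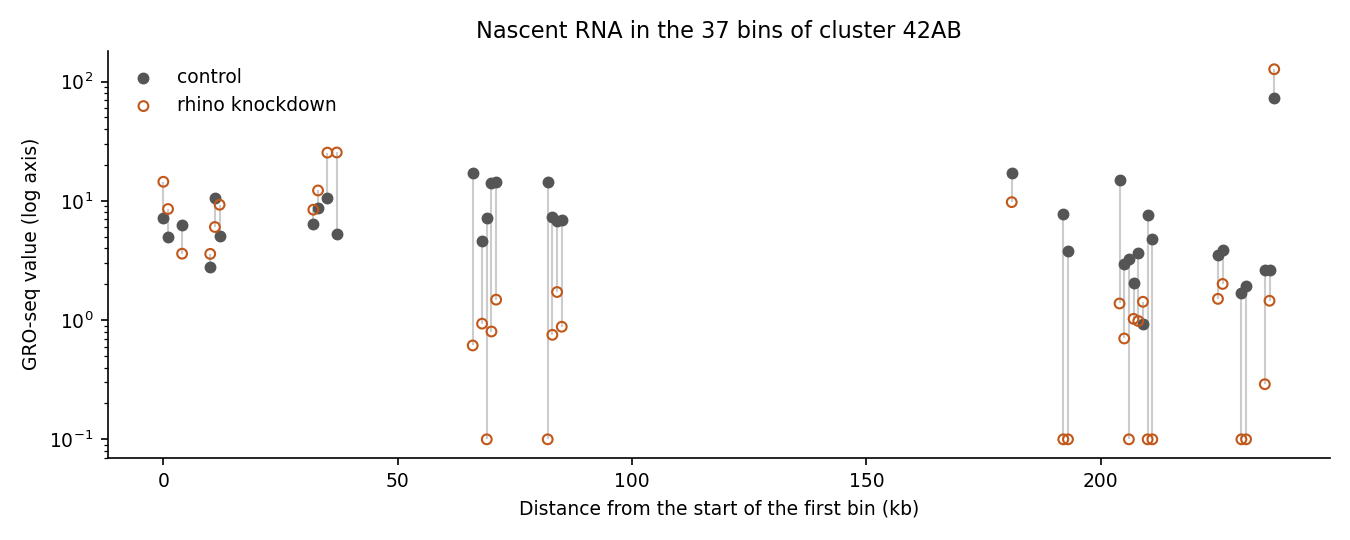
GRO-seq value (log axis) in the control (filled) and in rhino knockdown (open) for each of the 37 bins of cluster 42AB, by distance in kb from the start of the first bin, with grey lines joining the values of a bin; points at 0.1 are bins with 0 reads. Of the first 10 bins 8 lie above the control and 2 below it, and of the next 26 bins 25 lie below it. The last bin is the highest in both libraries.

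The smaller dual-strand clusters differed from each other. Cluster 80F (3L 23273001 to 23315000) had 15 of 35 bins lost and 3 gained, with median values of 3.86 and 1.16 and a ratio of 0.685 (0.620 to 0.756). Cluster 38C2 (2L 20104001 to 20117000) had 5 of 9 bins lost and 0 gained, with median values of 2.39 and 0.431. Its ratio was 1.14 (1.06 to 1.22), and 68.1% of its reads lay in the bin at its edge, 20104001 to 20105000, with values of 170 and 191. Without that bin the ratio was 1.17 (1.04 to 1.31). Cluster 38C1 (2L 20148001 to 20228000) had 3 of 11 bins lost and 2 gained, and 81.2% of its reads lay in 1 bin, 20223001 to 20224000. Its ratio of 2.12 (1.91 to 2.35) became 0.931 (0.743 to 1.17) without that bin.

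At the distal cluster of chromosome 4 (1258001 to 1349000), 5 of 19 bins were gained and 4 were lost, with a ratio of 1.92 (1.73 to 2.13). The bin at 1288001 to 1289000 had values of 30.2 and 78.8. Over bins with a mappability index of at least 0.9 the ratio was 0.363, and inside the window selection of the deposited table it was 0.880, so the direction at this cluster changed with the bins used. Over the 5 dual-strand clusters together, 47 of 111 bins were lost and 12 were gained, and the median log2 difference was -0.81, while the ratio of summed reads was 1.17 (1.13 to 1.22). Without the bin with the most reads in each cluster this ratio was 0.886. The count of bins and the sum of reads therefore point in opposite directions.

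Small RNA was lower at each of the dual-strand clusters, and RNA-seq was lower in most bins of 4 of them. RNA-seq in rhino knockdown was below both control libraries in 33 of 37 bins of 42AB, 31 of 35 of 80F, 9 of 11 of 38C1 and 7 of 9 of 38C2, but in 5 of 19 bins of the distal chromosome 4 cluster. Mean small RNA value went from 3348 to 83.2 at 42AB, from 705 to 4.77 at 80F, from 1287 to 7.43 at 38C2, from 491 to 8.10 at 38C1 and from 524 to 92.7 at the distal chromosome 4 cluster. Pol II signal was lower in 36 of 37 bins of 42AB and in 24 of 35 of 80F, in 4 of 11 of 38C1, in 4 of 9 of 38C2 and in 10 of 19 of the distal chromosome 4 cluster. Its mean was 26.6 in the control and 36.9 in rhino knockdown at 38C2, and 15.0 and 29.5 at the distal chromosome 4 cluster. These counts take any decrease, which was common. Over all bins the median Pol II difference was 0.02 (log2), with quartiles of -0.20 and 0.28. The median was -0.82 at 42AB, -0.30 at 80F, 0.14 at 38C1, 0.17 at 38C2 and -0.002 at the distal chromosome 4 cluster.

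The clusters read from 1 strand differed little between the libraries. Flamenco (X 21503001 to 21685000), on which somatic follicle cells rely for their piRNAs, had 1 of 14 bins gained and 0 lost, with a ratio of 0.996 (0.906 to 1.09). Cluster 20A (X 21392001 to 21432000) had 0 of 7 called in either direction and a ratio of 0.949 (0.860 to 1.05). Mean small RNA was 1634 and 1759 at flamenco, and 1874 and 1215 at 20A. Only 14 of the 182 bins of flamenco could be used.

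Among the chromosome ends, which carry repeats associated with telomeres, the 2R end (21136001 to 21147000) had 4 of 10 bins gained and 0 lost. Its ratio was 2.29 (1.96 to 2.68), and the bin at 21142001 to 21143000 had values of 13.2 and 36.0. The 2L end (1 to 10000) had 0 of 5 bins called and a ratio of 0.923 (0.813 to 1.05). All 10 bins of the 3R end (27895001 to 27905000) had a mappability index of at most 0.486 and were left out.

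Some called bins lay in runs. Joining called bins of the same direction over gaps of up to 1 kb gave 203 gained runs of at least 3 bins. They held 876 of the 4269 gained bins. The 109 lost runs held 426 of the 3944 lost bins, so most called bins lay outside such runs. The longest gained run had 15 bins and the longest lost run 16. Of the gained runs, 152 lay in the euchromatic arms, 41 on the scaffolds, 9 at the pericentromeric ends and 1 on chromosome 4. The lost runs numbered 70, 12, 16 and 11 in the same order. All bins compared numbered 60534, 1784, 1610 and 876 in that order. Counts, reads, ratios and means of a run cover its called bins only. Bins inside the stated span that were not called are left out. The calls used the same GRO-seq values, so the direction of a run was fixed by the choice. The counting intervals of runs do not allow for that choice. Of the 10 gained runs with the largest summed difference in value, 6 lay on 3RHet, 1 on 2RHet, 1 at the pericentromeric end of 2L, 1 on 3R and 1 on X.

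The longest of these, at 3RHet 590001 to 605000, had 14 bins with no exon, a control Rhino signal 2.25 and an H3K9me3 signal 2.85 over input (median log2). Its mean control Rhino value was 14.4, against 330 at 42AB and a median of 8.33 over all bins. Its mean control H3K9me3 value was 23.1, against a median of 6.21 over all bins. Input was low in the gained bins of 3RHet, with a median of 2.31 against 9.90 over all bins. The run held 40 reads in the control and 2750 in rhino knockdown, a ratio of 73.0 (53.5 to 102), and its mean value was 0.599 and 35.3. The change did not stop at the edges of the run. From 20 kb before it to 74 kb after its first bin, all 37 other bins with a mappability index of at least 0.5 were higher in rhino knockdown, and 18 of them had 0 control reads. From 40 kb before it, 43 of 44 such bins were higher. The 37 bins include the 7 bins of the gained run at 609001 to 616000, which was chosen for its gain. Mean Pol II signal in the run was 2.04 and 15.4, and RNA-seq was above both controls in all 14 bins, with means of 0.132 and 0.367 in the controls and 2.06 in rhino knockdown. Small RNA was higher in 9 of the 14 bins.

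**Figure D4:**
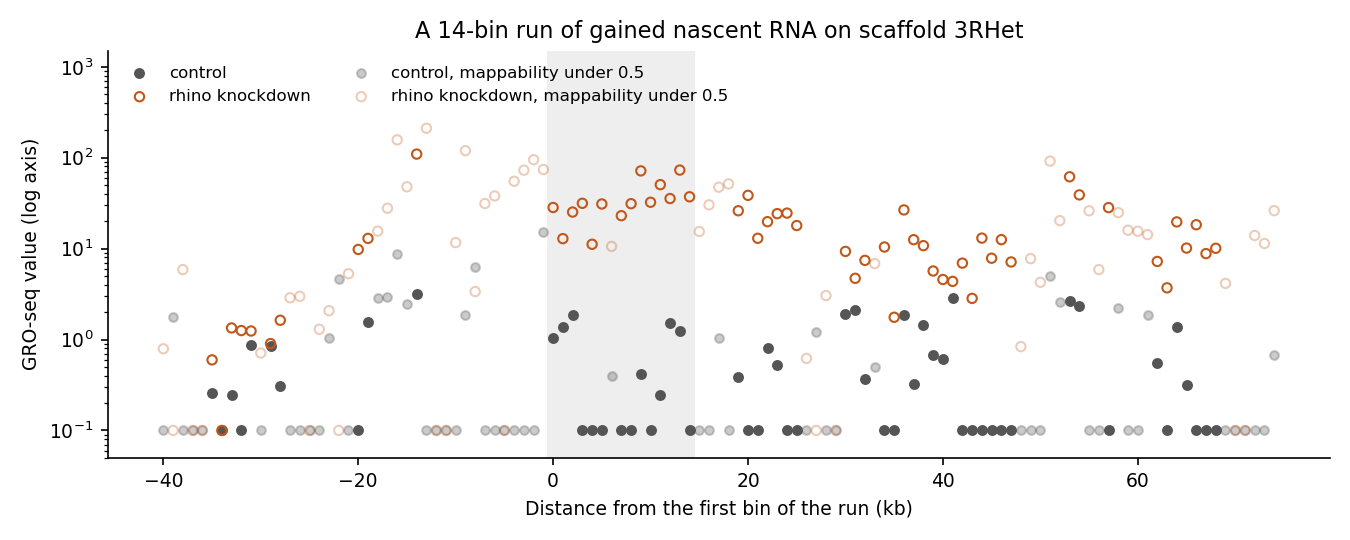
GRO-seq value (log axis) in the control (filled) and in rhino knockdown (open) by distance in kb from the first bin of the run at 590001 on 3RHet, which is shaded; pale points are bins with a mappability index under 0.5, and points at 0.1 are bins with 0 reads. The rhino knockdown values lie above the control values within the run and over all 37 other usable bins from 20 kb before it on.

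The other scaffold runs among the 10 had the same shape of near silence in the control. At 3RHet 1258001 to 1268000, 12 control reads stood against 1809 over 9 bins, a ratio of 160 (91.4 to 310). At 3RHet 2179001 to 2182000, 3 reads stood against 1308 over 3 bins, and at 3RHet 2154001 to 2161000, 2 against 1383 over 7 bins. Those counts give ratios of 463 (158 to 2247) and 734 (203 to 6067). The runs at 3RHet 2117001 to 2129000 (11 bins) and 609001 to 616000 (7 bins) had ratios of 35.0 (24.6 to 51.4) and 108 (58.4 to 225), and the 6 bins at 2RHet 2271001 to 2277000 had 158 (72.4 to 432). In this 2RHet run 66.3% of the reads lay in 1 bin, 2271001 to 2272000, with a mappability index of 0.534. Without that bin the ratio was 52.5 (23.9 to 144).

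At the pericentromeric end of 2L, 22275001 to 22283000, 11 reads stood against 851 over 8 bins, and mean RNA-seq was 0.166 and 0.369 in the controls and 19.6 in rhino knockdown. Pol II signal was higher in every bin of these 8 runs, and in 485 of the 626 gained heterochromatic bins. Small RNA went both ways in these runs. Its mean was 16.7 in the control and 105 in rhino knockdown at 3RHet 2154001, and 30.2 and 7.00 at 3RHet 2117001.

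The 2 gained runs in the arms had a high control level instead. At 3R 20088001 to 20092000 the mean value over 3 bins was 176 in the control and 393 in rhino knockdown, a ratio of 2.23 (2.14 to 2.32). There 81.1% of the reads lay in 1 bin, and the ratio was 2.90 (2.64 to 3.20) without it. At X 6626001 to 6629000 the mean value was 26 and 79.9. Pol II signal was higher in all 3 bins of each of these 2 runs too. RNA-seq was above both controls in 0 bins of either run, and below both in 1 of 3 bins on 3R and 2 of 3 on X.

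The lost run with the largest summed difference lay at 3L 3095001 to 3098000, where 133129 control reads stood against 32903, a ratio of 0.262 (0.259 to 0.266). The bins there showed no Rhino or H3K9me3 enrichment (median log2 over input -0.25 and -0.70). Pol II was higher in 2 of the 3 bins, and RNA-seq was below both controls in 0 of them and above both in 2. Mean Pol II signal was 8.49 in the control and 10.1 in rhino knockdown. The other 9 lost runs with the largest differences lay on chromosome 4 (2), in 42AB, on U, in the arms (4) and at the pericentromeric end of 3L.

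The longest, at 4 719001 to 738000, had 16 bins called lost, with 306 control reads and 24 in rhino knockdown, a ratio of 0.0833 (0.0525 to 0.126). Its control Rhino signal was 2.72 over input (median log2), its small RNA went from 73.9 to 0.415, and all 16 bins had lower Pol II and RNA-seq below both controls. At 4 993001 to 997000, 768 reads stood against 228, and all 4 bins were lower in Pol II and below both RNA-seq controls. At 2R 2210001 to 2216000, inside 42AB, 253 reads stood against 14 over 5 bins, a ratio of 0.0587 (0.0317 to 0.10). At U 2652001 to 2655000, 266 stood against 5 over 3 bins, with Rhino at 1.24 over input (median log2). All bins of these runs were lower in Pol II and below both RNA-seq controls.

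The lost runs of the arms differed among themselves. At X 13292001 to 13296000, 597 reads stood against 188, mean Pol II was 15.8 and 16.2, and Pol II was lower in 1 of 4 bins. At 2L 6087001 to 6092000, 449 stood against 143 and Pol II was higher in all 4 bins. RNA-seq was below both controls in 0 bins of these runs. At 3L 12797001 to 12801000, 1065 stood against 437, mean Pol II was 67.2 and 59.4, and 2 of 3 bins were lower in Pol II and 2 below both RNA-seq controls. At X 3925001 to 3942000, 403 stood against 68, mean Pol II was 1.48 and 1.26, and 8 of 12 bins were lower in Pol II and 10 below both RNA-seq controls. The pericentromeric run at 3L 23236001 to 23243000 had 371 against 100 reads over 7 bins, of which 5 were lower in Pol II and 6 below both RNA-seq controls.

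Single bins with at least 50 reads over both libraries numbered 40561. The 5 with the largest gain were U 5188001 to 5189000 and 6002001 to 6003000, 2RHet 2271001 to 2272000, and 3RHet 2179001 to 2180000 and 2180001 to 2181000. The first had 0 control reads and 919 in rhino knockdown, at least 264-fold higher by the lower limit of the exact interval. By the same limit U 6002001 was at least 81.2-fold, 2RHet 2271001 at least 171-fold and 3RHet 2179001 at least 109-fold higher, each with 0 control reads. With the control set to a floor of 3 reads the 4 ratios were 325, 100.5, 211 and 134 in the same order. The neighbouring bin, 3RHet 2180001, had 1 control read against 584, a ratio of 620 (111 to 24528). None of the 5 overlapped an exon, and their Pol II signal was higher in rhino knockdown in each, such as 8.91 and 61.3 at U 5188001.

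The 5 with the largest loss lay at 2L 22463001 to 22464000, U 2653001 to 2654000 and 2654001 to 2655000, and 2R 2210001 to 2211000 and 2226001 to 2227000 in 42AB. There were 83 control reads and 1 in rhino knockdown at 2L 22463001, 141 and 1 at U 2654001, and 102 and 1 at U 2653001. At 2R 2226001 there were 51 reads in the control and 0 in rhino knockdown, at least 12.6-fold lower by the exact interval and 16-fold on a floor of 3 reads. At 2R 2210001 there were 70 and 2. Pol II signal was lower in each of the 5, such as 8.40 and 0.511 at 2L 22463001.

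Steady-state RNA went the same way as nascent RNA in most called heterochromatic bins. Over all bins, RNA-seq in rhino knockdown was above both control libraries in 20.7% and below both in 37.5%. The 2 control libraries themselves differed: the second was at least 2-fold above the first in 4540 bins (7.01%) and below it in 912 (1.41%), with a median log2 difference of 0.12. In the gained heterochromatic bins RNA-seq was above both in 384 of 626 (61.3%). In the lost heterochromatic bins it was below both in 336 of 481 (69.9%), against 52.3% of the 2287 heterochromatic bins that were not called. Among Rhino-bound bins it was below both in 178 of 198 lost bins (89.9%) and above both in 95 of 165 gained bins (57.6%), against 63.8% below both and 14.6% above both in the 362 that were not called. Outside heterochromatin, RNA-seq was above both in 29.2% of gained bins and below both in 29.1% of them, and it was above both in 17.0% and below both in 42.6% of lost bins.

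Pol II signal was at least 2-fold higher in rhino knockdown in 1.29% of all bins and at least 2-fold lower in 0.117%. It was 2-fold higher in 163 of the 626 gained heterochromatic bins (26%), 94 of the 189 gained bins of 3RHet (49.7%) and 49 of the 165 gained Rhino-bound bins (29.7%). It was 2-fold lower in 30 of the 198 lost Rhino-bound bins (15.2%), and 14 of those 30 lay in 42AB. Median Pol II differences (log2) were 0.45 in gained, -0.02 in uncalled and -0.21 in lost heterochromatic bins, and 0.58, -0.05 and -0.49 in Rhino-bound bins. Gained bins outside heterochromatin had a median of 0.12. Across bins, Spearman's rho between the GRO-seq and Pol II differences was 0.16 over all 64804, 0.40 over the heterochromatic, 0.65 over the Rhino-bound and 0.71 over the 3RHet bins. These describe 1 pair of libraries per assay, and bins share the mappability divisor and their neighbours.

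Small RNA was at least 2-fold higher in 7.77% of all bins and at least 2-fold lower in 7.57%. It was 2-fold lower in gained and lost heterochromatic bins alike, in 447 of 626 (71.4%) and 368 of 481 (76.5%), against 52.7% of the uncalled ones. In Rhino-bound bins a lower value was general: it was 2-fold lower in 77.9% of the uncalled bins, in 137 of 165 gained bins (83.0%), with medians of 51.7 in the control and 3.51 in rhino knockdown, and in 191 of 198 lost bins (96.5%), with medians of 68.0 and 0.697. On chromosome 4 it was 2-fold lower in 68 of 120 lost bins (56.7%) and in 27.5% of the uncalled ones.

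H3K9me3 was at least 2-fold lower in 1.17% of all bins and at least 2-fold higher in 2.99%. In gained heterochromatic bins it was 2-fold lower in 7 of 626 and 2-fold higher in 128, and 550 of the 626 had been at least 4-fold over input in the control. The higher values came mainly from 3RHet, where 97 of 189 gained bins (51.3%) were 2-fold higher and the median value was 17.7 in the control and 37.7 in rhino knockdown. Without 3RHet, 31 of 437 gained heterochromatic bins were 2-fold higher and the median log2 difference was -0.03. Gains of nascent RNA on 3RHet thus lay in bins where the H3K9me3 average was also higher, and the part of each in the other was not tested. These bins were also low in input. Its median was 2.31 in the gained and 5.43 in the uncalled bins of 3RHet, against 9.90 over all bins. Input was 1 average and not given per group, so the amount of DNA in the 2 groups was not compared. Chromosome 4 had a median H3K9me3 difference of -0.46 (log2), with -0.44 in its gained and -0.38 in its lost bins.

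**Figure D5:**
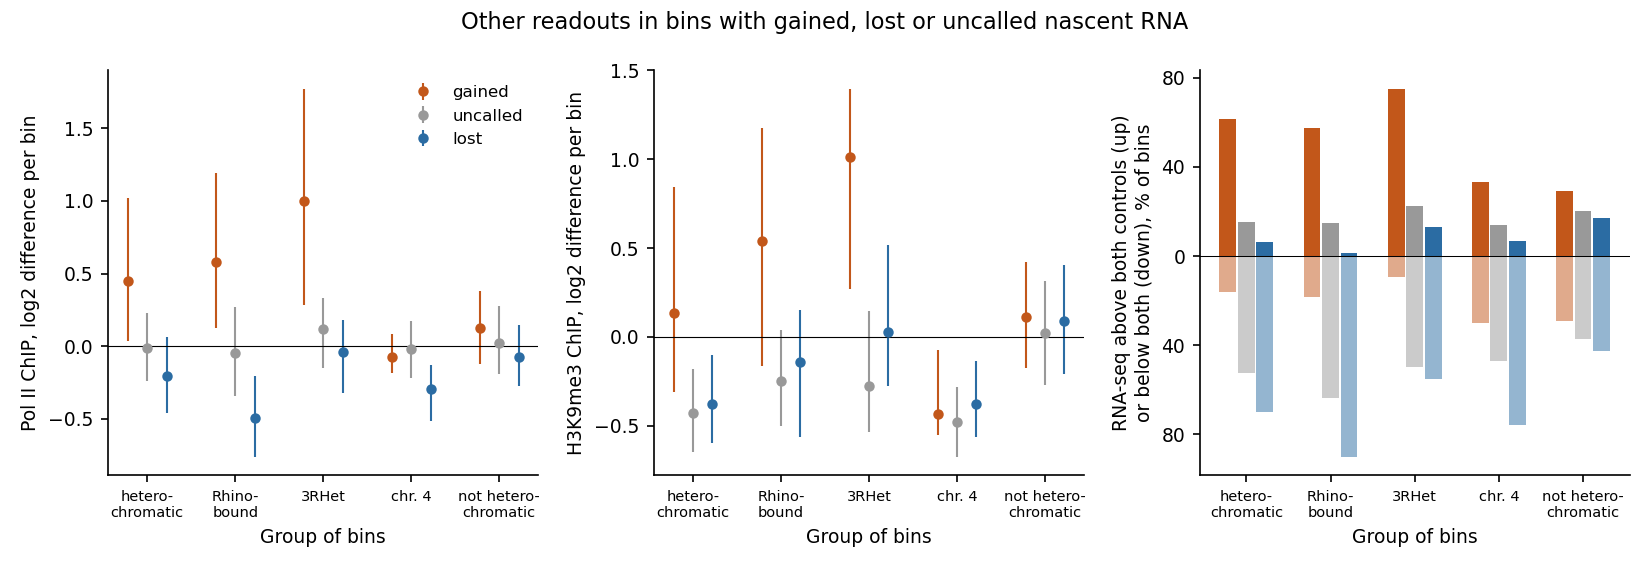
Pol II ChIP and H3K9me3 ChIP differences (log2, rhino knockdown minus control; points are medians over bins, bars are quartiles) and share of bins (%) with RNA-seq above both controls (full colour, up) or below both (pale, down), for gained (orange), uncalled (grey) and lost (blue) bins. In heterochromatic and Rhino-bound bins Pol II and RNA-seq are higher where nascent RNA was gained and lower where it was lost, and on 3RHet the gained bins also have higher H3K9me3.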

How the data were processed

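The authors deposited 1 table of normalised values per 1 kb bin on dm3, with decimal commas. Per the submitters' processing notes the tools were cutadapt 1.0, Bowtie 0.12.7, SAMtools 0.1.16, bedtools 2.16.1 and GSNAP, and their roles are not given in the sources used here. In the values deposited by the authors, subtracting 0.1 (0.01 for RNA-seq) and multiplying by the mappability index left whole multiples of 1 read in 100% of bins under 500 reads, within 0.1 read. Reads were recovered in this way for every single library used. Columns that the authors averaged have no SD or n. Summed bin reads came to 102% of the GRO-seq totals. Another 12 columns of per-sample values were not used.

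Differences are of log2(value + 1), rhino knockdown minus control. Ratios of summed scaled reads carry exact 95% Clopper-Pearson intervals conditional on the read sum. For bins with 0 reads the interval's limit is given beside the ratio on a floor of 3 reads per library. No test was run, because each group had 1 GRO-seq library. The members, regions and classes were chosen with earlier results of these data known. Named were the 10 listed regions, the 10 gained and 10 lost runs with the largest summed difference, and the 5 gained and 5 lost bins with the largest log2 difference among bins with at least 50 reads over both libraries. Alternatives were other limits on mappability and value, rescaling, pseudocounts of 0.1 and 5, a 4-fold call, calls that need a counting interval, other Rhino thresholds, and leaving out 42AB, the largest bin of a region or an RNA-seq control. Read recovery and intervals were tested on simulated data. Python 3.11.15, pandas 2.3.3, NumPy 2.4.6, SciPy 1.17.1 and matplotlib 3.10.9 were used. No sequence is shown, since a dm3 genome was not used here.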

Additional observations from a re-analysis of the deposited data

How the results depend on the processing

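Call counts followed the limits on signal. With a value of at least 5 in either library, 1706 bins were gained and 1618 lost; with a pseudocount of 0.1, 8429 and 7397; with a pseudocount of 5, 505 and 223; with a 4-fold call, 419 and 114; and with at least 50 reads in either library, 1037 and 1105. Fewer bins or a stricter call by construction give the lower counts. Rescaling rhino knockdown so that euchromatic exon bins had a median of 0 multiplied its values by 1.08, a shift of 0.11 (log2), and gave 5441 gained and 3357 lost.

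The lost share of Rhino-bound bins was 8.02% with values of at least 5, 13.9% with no minimum, 39.3% and 2.07% with pseudocounts of 0.1 and 5, 3.45% with a 4-fold call, 5.71% with 50 reads, and 13.5% and 43.1% with binding set at 2-fold and 8-fold. The gained share of heterochromatic bins outside exons was 33.8% with no mappability minimum, 13.0% with 0.9, 9.69% with no minimum on the value, 29.0% and 7.18% with the pseudocounts, 8.10% with a 4-fold call and 19.0% with 50 reads.

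The ratio over the dual-strand clusters was 1.25 with no mappability minimum, 1.33 with values of at least 5, 1.26 after rescaling, 1.28 without 42AB, 1.08 inside the window selection of the deposited table, and 0.886 without the bin with the most reads of each cluster. Single clusters changed direction: 42AB was at 1.03 with values of at least 5, 38C1 at 0.931 without its largest bin, and the distal chromosome 4 cluster at 0.363 with a mappability index of at least 0.9 and 0.880 inside the window selection. For results without a reason given here, the cause was not tested.

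Leaving out either RNA-seq control gave 67.4% to 75.9% of gained heterochromatic bins above the control left and 91.9% to 95.5% of lost Rhino-bound bins below it. The window selection and the 50 reads were chosen after seeing the data. No paired analysis was possible because each GRO-seq group is 1 library and the replicates of the ChIP groups are averages.

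With 1 library per group, depth limits only the counting error, and a value of 1 stood for about 6 reads in a fully mappable bin.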
